A study of Sus scrofa with 21 samples.

Results

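The remote myocardium (RM) at 1 week after a myocardial infarction (MI) was compared with control myocardium (CM). RM is the muscle that the blocked artery did not supply, here taken from the interventricular septum. The members were the 3 arrays labelled remote and 1 week (pigs 7, 8 and 9), set against the 3 arrays labelled sham operation (pigs 30, 31 and 33), out of 21 arrays in the series. The infarcted pigs had a surgically induced MI by permanent ligation of a branch of the circumflex artery, and the labels give their sampling as 6 days. The controls are labelled as sham-operated at time 0, while the methods describe healthy animals, and their sampling site is not given in the sources used here. All pigs were female Landrace x Large White crosses of one weight class, and each array held RNA of a different pig in this comparison. RM at 4 and 6 weeks and the infarct core (IC) at 1 week, also 3 arrays each, are used only where a result below needs them.

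After an infarction the surviving muscle carries a greater load, and it is reached by circulating hormones and by inflammatory signals from the scar. Muscle cells respond by growth and by changes of the contractile apparatus, fibroblasts by depositing matrix, and endothelial cells, which line the vessels between the fibres, by changes of tone, permeability and growth. Serum response factor (SRF) links the state of the actin cytoskeleton to transcription. Glucocorticoids and fasting act on muscle through genes of protein breakdown and fuel choice.

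The deposited values are log2 expression levels of probe sets, groups of short probes that each report 1 transcript. A difference of 1 is a doubling, and levels of different probe sets cannot be set against each other. Probe sets above 3 in at least 10 of the 21 arrays were tested, 12180 of 24123. Those with an adjusted p under 0.05 in limma are called differentially expressed probe sets (DEPS), every log2 fold change (FC) is RM minus CM, errors are limma's standard errors unless given as SD, and n was 3 arrays in each group. In a bulk sample, fewer cells of a type and less RNA per cell cannot be told apart. Time in the study also differed between RM and CM, and sampling site and surgery may have differed. The parts of these 3 in the results cannot be told apart from that of the infarction.

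Of the 12180 probe sets, 138 (1.13%) were DEPS, of which 62 (0.509%) were higher in RM and 76 (0.624%) were lower. The median log2 FC was 0.94 among the higher and -1.10 among the lower ones, and 27 and 47 of them reached a doubling or a halving. The RM and CM arrays did not overlap in 60 of the 62 and 76 of the 76, and in 21.8% of all probe sets tested. Without CM replicate 31 the list fell to 20 probe sets. It held 70 without CM replicate 30, and 53, 61 and 51 without RM replicates 7, 8 and 9. With arrays centred on ribosomal protein genes it held 24 higher and 73 lower, against 62 and 76. An unadjusted p under 0.05 in limma was reached by 1728 of the 12180 probe sets. Among named genes with 1 probe set each it was reached by 926 of 5805, the background for such counts in the lists below.

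Of the 138, 14 passed in each of the 6 fits that left out 1 array, 5 higher and 9 lower. The higher ones were FAM46A, TGFB1I1, both probe sets of CCDC15 and 1 probe set with no name. The lower ones were BMPR1B, ABLIM3, KIAA1462, DDR2, CPM, IL1RAP, NCOA7, PIK3C2A and 1 probe set of DOCK9. The other 124 lost the call in at least 1 of these fits. Of them, 24 lost it in all 6, among them ERG, NOTCH4, PRKCH, NREP, FKBP5 and FBXO32, which are described below.

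Among 31 endothelial markers, 18 were measured above the filter and 3 fell (S1PR1, ERG and EDNRB), while none rose. The median log2 FC of the 18 was -0.53, beside 0.02 over all probe sets tested, and 15 of 18 were negative. S1PR1 encodes a receptor of sphingosine 1-phosphate that keeps the endothelial barrier tight. It stood at 7.45, 7.75 and 7.45 in the RM arrays of pigs 7, 8 and 9 and at 8.59, 8.82 and 8.35 in the CM arrays of pigs 30, 31 and 33. All RM values lay below all CM values, and the log2 FC was -1.04 ± 0.18 (adjusted p = 0.0139), a 2.05-fold lower level. The other 2 probe sets of S1PR1 fell as well, by 1.14 (adjusted p = 0.0247) and 1.21 (adjusted p = 0.0306).

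ERG, a transcription factor of endothelial identity, stood at 4.36, 4.19 and 4.07 in RM and 5.35, 5.40 and 5.03 in CM, and fell by 1.05 ± 0.25 (adjusted p = 0.0465). EDNRB, the endothelin receptor through which endothelin releases nitric oxide, stood at 5.09, 5.30 and 5.24 against 6.92, 6.62 and 5.96, and fell by 1.29 ± 0.30 (adjusted p = 0.0434). The groups did not overlap for either gene, and for EDNRB the CM arrays spread more (SD 0.49) than the RM arrays (SD 0.11). ERG lost the call in each of the 6 fits that left out 1 array, and EDNRB in 5 of them. Of the junction genes, CDH5 (VE-cadherin) had a log2 FC of -0.89 (adjusted p = 0.196), CLDN5 (claudin 5) -1.53 (adjusted p = 0.136) and PECAM1 -0.76 (adjusted p = 0.221). Each had all RM arrays below all CM arrays without passing the test. VWF (-0.26, adjusted p = 0.803), EGFL7 (-0.03, adjusted p = 0.967) and ENG (0.12, adjusted p = 0.816) overlapped between the groups, and CD34 was the member with the largest positive value (0.55, adjusted p = 0.213).

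**Figure D1:**
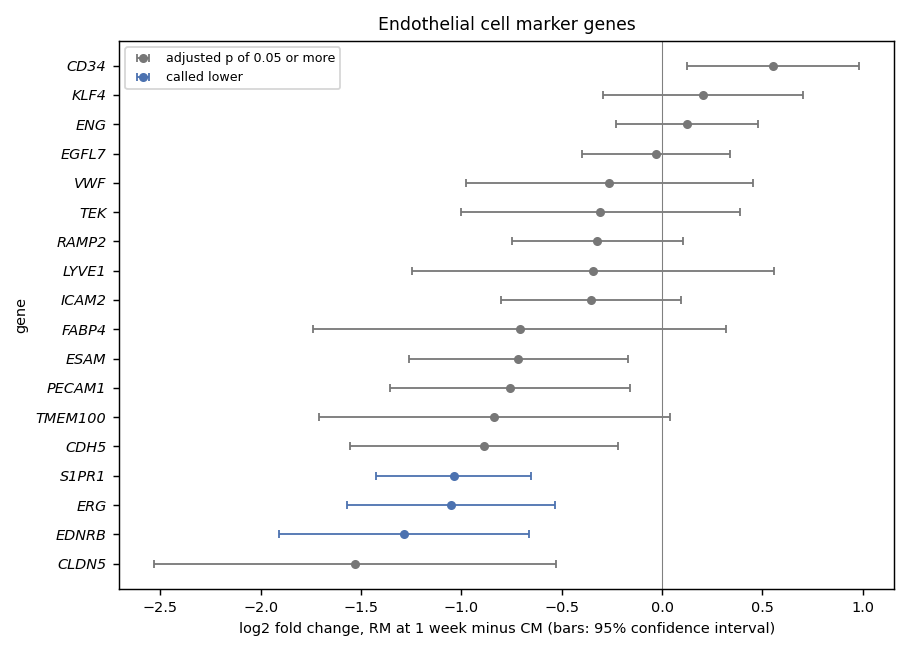
Log2 fold change (x axis, RM at 1 week minus CM, n = 3 and 3) of the 18 endothelial marker genes measured above the filter, 1 row per gene on the y axis. Points are estimates, bars are 95% confidence intervals, and blue marks the 3 genes called lower. The points of 15 genes lie left of 0.

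Genes known from endothelium, though not all particular to it, were also among the DEPS outside that list. KIAA1462, a protein of endothelial cell junctions, stood at 5.39, 4.64 and 4.51 in RM and 6.63, 6.50 and 6.32 in CM, a log2 FC of -1.64 ± 0.23 (adjusted p = 0.00442) that held without any single array. NOTCH4, a Notch receptor found mainly on endothelium, fell by 0.89 ± 0.19 (adjusted p = 0.0344), from 5.77 ± 0.07 (SD) in CM to 4.88 ± 0.25 in RM. PRKCH, a protein kinase C that is not particular to endothelium, stood at 4.31, 4.57 and 4.37 against 6.09, 5.87 and 6.04. It fell by 1.58 ± 0.33 (adjusted p = 0.0279). Unlike KIAA1462, NOTCH4 and PRKCH lost the call in each of the 6 fits that left out 1 array. These 3 genes were picked from the DEPS for their known role, so they say nothing on how many endothelial genes moved.

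The mean level of the 18 endothelial markers was 5.72, 5.48 and 5.21 in RM of pigs 7, 8 and 9 and 6.10, 6.06 and 5.84 in CM. None of 19 cardiomyocyte markers passed (1 had an unadjusted p under 0.05), and their mean was 10.86 to 10.92 in RM and 10.86 to 10.93 in CM, so that the groups overlapped. RM at 4 and 6 weeks had mean endothelial levels of 5.73 and 5.55. With platform names only, 2 of 17 endothelial markers fell, and the median was -0.35. Names also came from a match to human genes held here for probe sets in the study's own lists, so called probe sets were named more often than others.

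Genes of vessel tone and natriuretic peptides were measured in 15 of 31 cases, of which 3 fell (NPR1, EDNRB and ENPEP) and none rose, with a median of -0.20. NPR1, the receptor through which natriuretic peptides raise cyclic GMP, stood at 4.15, 3.87 and 3.03 in RM and 4.68, 5.03 and 4.83 in CM, and fell by 1.16 ± 0.27 (adjusted p = 0.0426). ENPEP, the aminopeptidase that trims angiotensin II, stood at 3.16, 4.02 and 3.48 against 4.65, 5.00 and 5.18, and fell by 1.39 ± 0.26 (adjusted p = 0.0165). RM lay below CM in each array for both genes. The receptors EDNRA (-0.58, adjusted p = 0.148) and AGTR1 (-0.70, adjusted p = 0.269) also had no overlap between the groups, and did not pass. With platform names only, 1 of 12 genes fell.

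The ligand NPPB, the B-type natriuretic peptide of stretched muscle, stood at 8.06, 9.26 and 3.92 in RM and 5.34, 3.27 and 3.34 in CM. Pigs 7 and 8 lay far above every control and pig 9 lay among them, and the log2 FC of 3.10 had a standard error of 1.57 (adjusted p = 0.394). MYL4, the atrial myosin light chain, had the same order (6.16, 7.70 and 4.80 against 4.47, 3.60 and 4.95) and a log2 FC of 1.88 (adjusted p = 0.364). Of the 10 measured genes of wall stress and the fetal programme (median 0.46), 1 rose. This was NEBL, which encodes nebulette of the Z-disc (5.55, 4.93 and 5.25 against 4.55, 4.67 and 4.45, adjusted p = 0.0497).

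Of 33 measured genes of the actin cytoskeleton and SRF, 4 rose (SRF, ILK, SMTNL2 and ZYX) and none fell. Their median log2 FC was 0.23, and 26 of 33 were positive. SRF itself stood at 6.60, 6.27 and 6.87 in RM and 5.74, 5.57 and 5.46 in CM, and rose by 0.99 ± 0.22 (adjusted p = 0.0377). ILK, a kinase-like anchor of integrins at the costamere, rose by 0.65 ± 0.13 (adjusted p = 0.0251), from 6.95, 6.99 and 7.11 to 7.48, 7.69 and 7.82. Zyxin (ZYX), which sits on stressed actin filaments, rose by 0.73 ± 0.17 (adjusted p = 0.0465), and SMTNL2, a smoothelin-like protein, by 1.32 ± 0.30 (adjusted p = 0.0383).

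All 4 had RM above CM in every array. The smooth muscle targets CNN1 (0.95, adjusted p = 0.212), TAGLN (0.71, adjusted p = 0.24) and ACTA2 (0.44, adjusted p = 0.24) did not pass. With platform names only, 1 of 29 genes of the list rose. Each of the 4 calls was lost without CM replicate 31, and in 4 or 5 of the 6 fits that left out 1 array.

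Other DEPS of the cytoskeleton lay outside that list and were chosen for their role. TGFB1I1 (Hic-5), an adaptor of focal adhesions, stood at 5.51, 5.43 and 5.46 in RM and 4.77, 4.61 and 4.53 in CM, and rose by 0.83 ± 0.12 (adjusted p = 0.00497). The tubulin genes TUBB (0.93 ± 0.19, adjusted p = 0.0258) and TUBB4B (1.08 ± 0.22, adjusted p = 0.0247) rose, the latter with a match to TUBB2A that leaves its identity unclear. DLC1, which turns off the small GTPase RhoA, rose by 0.97 ± 0.18 in the called probe set, while its 3 probe sets ranged from 0.30 to 0.97. ABLIM3, a LIM protein that binds actin, moved the other way, with 5.92, 5.90 and 5.93 in RM against 7.22, 7.07 and 7.22 in CM (log2 FC -1.25 ± 0.16, adjusted p = 0.00148).

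**Figure D2:**
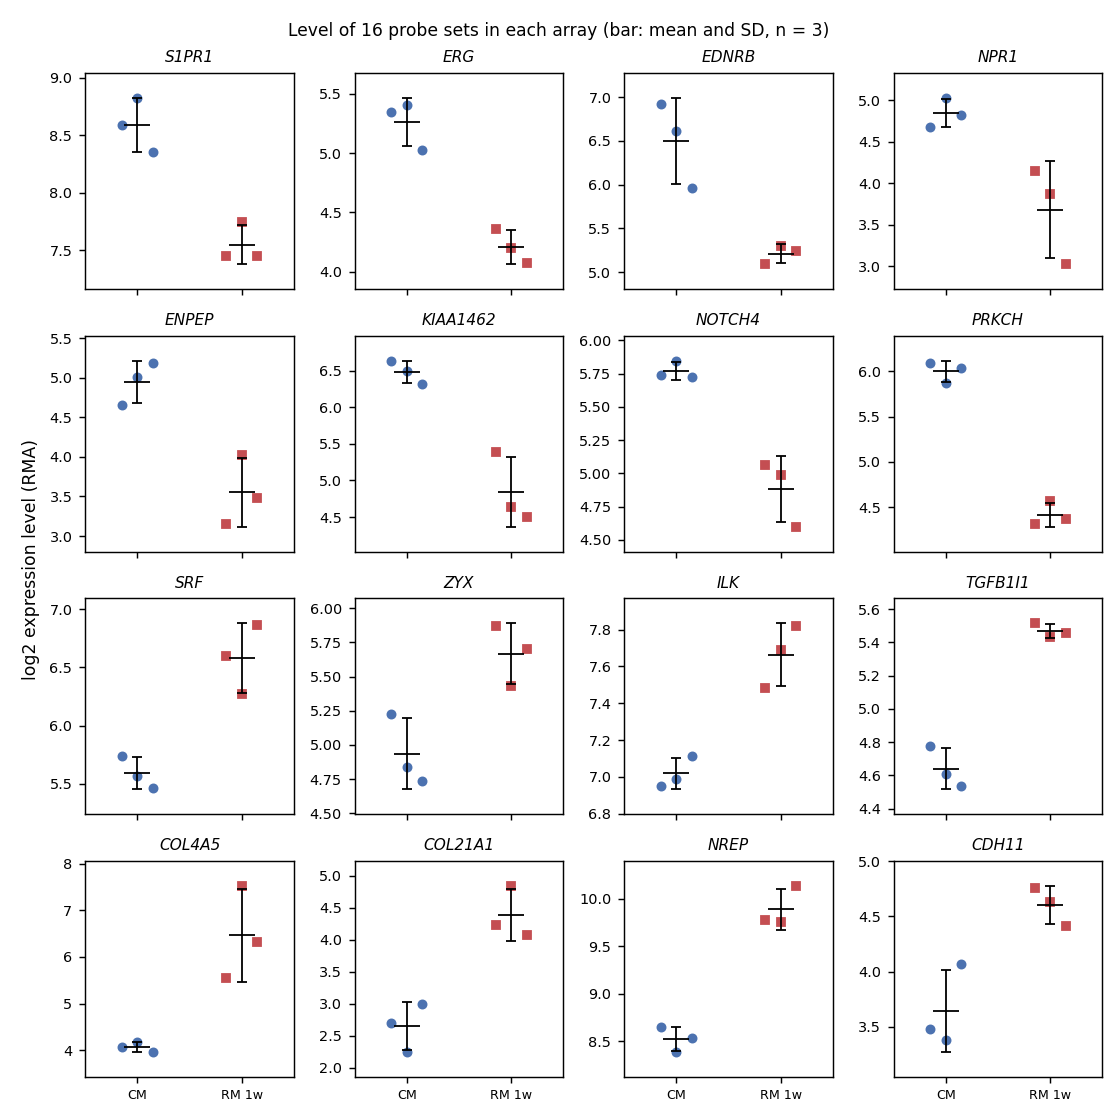
Log2 expression level (y axis, each panel with its own range) of 16 probe sets called in RM at 1 week, in the 3 CM arrays (blue circles, pigs 30, 31 and 33 from left) and the 3 RM arrays (red squares, pigs 7, 8 and 9). Black marks give mean and SD. The upper 8 genes are lower and the lower 8 higher in RM, with no overlap of arrays in any panel.

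Collagens and matrix genes were higher in RM as far as they passed. Of 19 measured collagens 2 rose, COL4A5 and COL21A1, and 18 had a positive log2 FC with a median of 0.49. COL4A5, a chain of the basement membrane around muscle cells, stood at 5.54, 7.52 and 6.32 in RM and 4.08, 4.19 and 3.97 in CM. The RM pigs differed from each other more than the controls did, but pig 7, the lowest, still lay 1.36 above the highest control. COL21A1, a minor collagen of vessel walls, stood at 4.23, 4.84 and 4.07 against 2.70, 2.25 and 3.00, with a CM mean below 3 that makes its size inexact. The fibrillar COL1A1 (0.88, adjusted p = 0.186) and the basement membrane gene COL4A2 (0.55, adjusted p = 0.132) did not pass. The COL4A1 probe set stood at 7.43, 7.49 and 7.24 against 7.50, 6.82 and 7.07 (0.25, adjusted p = 0.58), overlapping with CM.

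Of 39 measured genes in the list of matrix glycoproteins, proteoglycans and crosslinkers 2 rose, LRRC17 and NREP. The median was 0.63, with 35 positive. LRRC17 stood at 4.42, 5.07 and 4.16 in RM and 1.71, 2.22 and 3.82 in CM, and its CM mean below 3 makes the size inexact. NREP, a small protein found in cells of healing tissue, rose from 8.65, 8.39 and 8.54 to 9.78, 9.75 and 10.13 (log2 FC 1.36 ± 0.28, adjusted p = 0.0283). NREP is in the list although it is not itself a component of the matrix. MFAP4 (1.37, adjusted p = 0.0637), FBLN1 (1.18, adjusted p = 0.0727) and THBS2 (0.83, adjusted p = 0.0925) lay just outside the threshold. CM of pig 33 stood apart in these genes. The mean of the list was 5.74, 5.54 and 6.25 in CM of pigs 30, 31 and 33 and 6.60, 6.55 and 6.25 in RM of pigs 7, 8 and 9.

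Without CM replicate 33 the median of that list was 0.88 and that of the collagens 0.74, and without CM replicate 31 they were 0.48 and 0.33. With platform names only, 1 of 26 genes of the matrix list, NREP, and 0 of 9 collagens rose. At an unadjusted p under 0.05 the full lists of 39 and 19 genes held 19 and 8, beside 926 of all 5805 named genes.

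Of 18 measured fibroblast markers 1 rose (CDH11) and 1 fell (DDR2). CDH11, a cadherin of mesenchymal cells, stood at 4.76, 4.63 and 4.41 in RM against 3.48, 3.38 and 4.07. DDR2, a receptor that senses fibrillar collagen, stood at 4.73, 4.90 and 4.25 against 5.79, 6.01 and 5.99, and fell by 1.30 ± 0.19 (adjusted p = 0.00497). The list's mean level was 6.77, 6.78 and 6.55 in RM and 6.16, 5.97 and 6.76 in CM, so that CM of pig 33 reached the RM levels. Macrophage markers had mean levels of 5.23 to 5.41 in RM and 4.79 to 5.00 in CM without an overlap, but none of the 17 genes passed, AIF1 being the nearest (0.97, adjusted p = 0.0771).

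Smooth muscle and pericyte markers (14 genes, median 0.34) and adipocyte markers (4 genes, median -0.44) held no DEPS, with 5 and 0 genes at an unadjusted p under 0.05 and 5 among the macrophage markers. Neither did CCL5, the only measured lymphocyte marker, nor HBB, the only erythrocyte marker, with 0.06 and 0.13. None of 12 neutrophil markers passed the filter. Of the 3 measured mesothelial and Schwann cell markers, KRT8, an epithelial keratin, stood at 5.45, 5.81 and 2.86 in RM of pigs 7, 8 and 9 and 1.68, 1.51 and 2.20 in CM (adjusted p = 0.078). The part of these other cell types in the results was not tested.

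Proteases and hyaluronan enzymes changed in both directions. ADAMTS3, which trims procollagen, rose (3.52, 5.65 and 4.98 against 2.95, 2.96 and 2.27, adjusted p = 0.0465), and HYAL2, a hyaluronidase, fell (5.86, 5.68 and 5.58 against 7.76, 7.40 and 6.95, adjusted p = 0.0163). They were 2 of 11 measured members, and the median was -0.08. Since the CM mean of ADAMTS3 lay below 3, the size of its rise is not exact. DEPS of matrix secretion outside the lists were RRBP1, a ribosome receptor of the endoplasmic reticulum (1.29 ± 0.26), TRAM2, which takes part in collagen synthesis (0.88 ± 0.21), and CHSY1, a chondroitin synthase (0.78 ± 0.19). All 3 rose, but TRAM2 and CHSY1 did not pass with the pig as a random replicate block (adjusted p = 0.0529 for each).

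**Figure D3:**
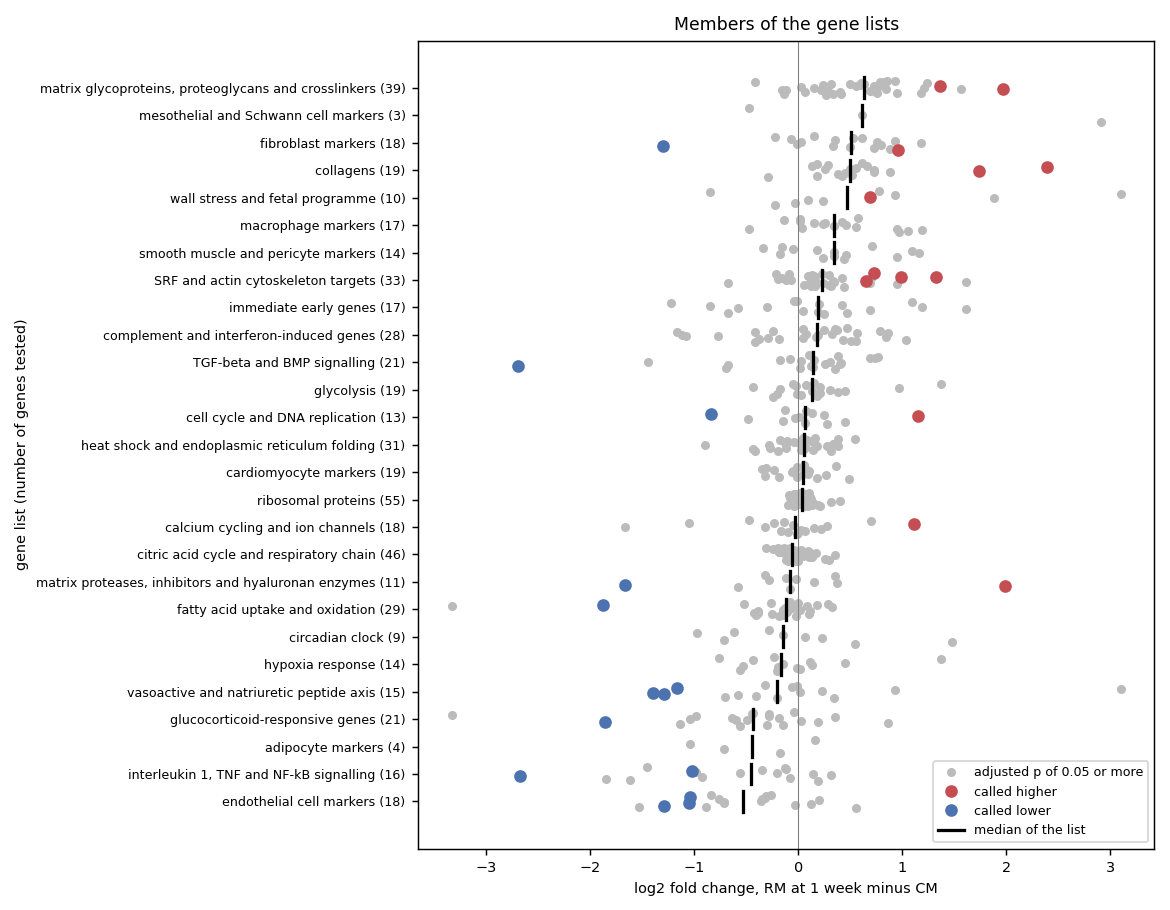
Log2 fold change (x axis, RM at 1 week minus CM) of each measured gene of the 27 lists with at least 3 measured genes (y axis, number of genes in parentheses), ordered by the median of the list (black line). Red and blue points passed the test as higher or lower, and grey points did not. Medians run from -0.53 for endothelial markers to 0.63 for matrix glycoproteins.

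Glucocorticoid-responsive genes had a median log2 FC of -0.44 over 21 measured genes, with 17 negative, and 1 of them fell while none rose. The one was FKBP5, a co-chaperone of the glucocorticoid receptor that the hormone induces. It stood at 6.32, 6.66 and 6.23 in RM and 8.32, 8.21 and 8.26 in CM, a log2 FC of -1.86 ± 0.40 (adjusted p = 0.0306). The largest log2 FC of the list belonged to PDK4, the kinase that shuts off pyruvate dehydrogenase in fasting. One probe set stood at 6.06, 5.73 and 5.70 in RM and 9.80, 9.85 and 9.98 in CM, and the other at 8.07, 7.59 and 7.58 against 11.11, 11.06 and 11.07.

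The PDK4 groups lay 3.74 and 2.99 apart on the log2 scale, with SDs of at most 0.28. Log2 FC were -4.05 ± 1.30 (adjusted p = 0.147) and -3.33 ± 1.14 (adjusted p = 0.174), so neither passed. The fit pools the spread of all 7 groups. RM at 6 weeks stood at 9.98, 8.79 and 3.79 for the first probe set and 11.46, 10.49 and 6.16 for the other. PDK4 thus also varied widely between pigs of the same group. In a fit of the 6 arrays compared, the adjusted p was 8.53e-05 and 0.00037. KLF15 (-1.04, adjusted p = 0.186), a transcription factor of the same response, did not overlap between the groups either.

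Several called genes of protein breakdown, energy stress and lipid metabolism fell at 1 week. FBXO32 (atrogin 1), the ubiquitin ligase of muscle wasting, stood at 6.30, 5.64 and 5.99 in RM and 8.01, 7.53 and 7.54 in CM, and fell by 1.71 ± 0.40 (adjusted p = 0.0455). Its other probe set had a log2 FC of -1.52 (adjusted p = 0.0801). SESN1, a stress protein that restrains growth signalling, fell by 1.21 ± 0.25 (adjusted p = 0.0299), with -0.85 in its other probe set (adjusted p = 0.0989), and HBP1, a repressor of the cell cycle, stood at 6.28, 6.59 and 6.40 against 7.64, 7.68 and 7.28. These genes were taken from the DEPS after their values were seen.

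PLIN2, which coats lipid droplets, was the one DEPS among 29 measured genes of fatty acid uptake and oxidation (median -0.12). It stood at 2.85, 3.12 and 2.54 against 4.69, 5.26 and 4.17, and its RM mean below 3 makes the size inexact. Enzymes that fell were FDFT1 (squalene synthase, -1.45 ± 0.34), FMO1 (a monooxygenase, -1.82 ± 0.34), ALDH4A1 (proline breakdown, -0.92 ± 0.21) and PGM1 (entry of glycogen sugar into glycolysis, -0.86 ± 0.20). Of 46 genes of the citric acid cycle and respiratory chain (median -0.06) and 19 of glycolysis (median 0.13), 0 passed, and 2 of each list had an unadjusted p under 0.05.

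In the interleukin 1, TNF and NF-kB list, 2 of 16 measured genes fell and none rose, with a median of -0.45. IL1RAP, the accessory chain of the interleukin 1 receptor, stood at 1.93, 3.55 and 3.20 in RM and 5.50, 5.71 and 5.48 in CM. PELI1, a ubiquitin ligase of that pathway, fell by 1.02 ± 0.18 (adjusted p = 0.0144), from 7.31, 7.02 and 7.17 to 5.94, 6.18 and 6.33. For IL1RAP the RM mean lay below 3, and the size of its fall is not exact.

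CM of pig 30 stood apart in the uncalled genes of that list. ICAM1 was 9.42 there against 4.98 and 5.33 in the other 2 controls, VCAM1 was 10.41 against 7.85 and 7.31, and CXCL2 was 7.07 against 4.20 and 3.21. The same array led in FOS (7.85 against 3.25 and 3.14) and CYR61 (9.24 against 6.72 and 6.01). The list's mean was 6.20 in CM of pig 30, about 5.04 in the other 2 controls and 4.60 to 4.84 in RM. Without CM replicate 30 its median was -0.33. The immediate early list (17 genes, 0 DEPS, 4 with an unadjusted p under 0.05) had a median of 0.19, which became -0.20 without CM replicate 33 and 0.34 without CM replicate 30.

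Some further lists held single DEPS. In the TGF-beta and BMP list (median 0.14) 1 of 21 fell, the probe set named BMPR1B by the platform and FRK by the match to human genes. It had the smallest p of the comparison (log2 FC -2.69 ± 0.24, adjusted p = 1.83e-05), at 2.63, 2.96 and 2.93 in RM and 5.41, 5.57 and 5.61 in CM. Which of the 2 genes it reports is not clear, and its RM mean below 3 makes the size inexact. RRAD, a GTPase that restrains calcium channels, rose (9.73, 8.80 and 9.82 against 8.28, 8.51 and 8.21, adjusted p = 0.0402) as 1 of 18 genes of calcium cycling and ion channels, whose median was -0.03.

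Among 13 genes of the cell cycle (median 0.07) NASP, a histone chaperone, rose by 1.15 ± 0.27 and RASSF1, a tumour suppressor, fell by 0.84 ± 0.18. Circadian clock genes (9 measured, median -0.15), hypoxia response genes (14, -0.17), complement and interferon genes (28, 0.18), chaperones (31, 0.06) and ribosomal protein genes (55, 0.04) held no DEPS by their main probe set. At an unadjusted p under 0.05 these lists held 4, 2, 5, 4 and 1 genes, beside 926 of all 5805 named genes. HSPA14, a chaperone, rose by 0.66 in another probe set than the one used for its list (0.38, adjusted p = 0.434).

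DEPS outside the lists were grouped by their known role after their values were seen. Of growth factors and surface receptors, PDGFC, a platelet-derived growth factor, stood at 7.46, 7.55 and 7.53 in RM and 8.45, 8.46 and 8.37 in CM (log2 FC -0.91 ± 0.17, adjusted p = 0.0176). Its other probe set had a log2 FC of -0.03 (adjusted p = 0.967), so its fall rests on 1 probe set. AXL, a receptor tyrosine kinase that recognises dying cells through a bridging ligand, rose from 4.99, 4.72 and 4.80 to 5.74, 5.51 and 5.32 (adjusted p = 0.0346). SLC2A12, a glucose transporter, stood at 2.91, 3.53 and 3.53 against 4.07, 4.69 and 4.44 and fell by 1.07 ± 0.21 (adjusted p = 0.0226). The receptor phosphatases went opposite ways, PTPRA rising by 0.56 ± 0.12 and PTPRG falling by 0.64 ± 0.15, with no overlap of arrays for either.

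Regulators of ubiquitin, transcription and translation were found among the lower and the higher DEPS. CYLD, a deubiquitinase that restrains NF-kB, stood at 4.06, 4.00 and 4.40 in RM and 5.33, 4.66 and 4.75 in CM (adjusted p = 0.0446). SETD7, a lysine methyltransferase, fell by 1.11 ± 0.19 (adjusted p = 0.0108), and ETF1, which ends translation at stop codons, fell by 1.25 ± 0.28 (adjusted p = 0.0379). CREB5, a transcription factor that binds cyclic AMP response elements, fell by 1.45 ± 0.32, with CM of pig 30 (7.20) above the other 2 controls (5.90 and 5.99). The deubiquitinases USP45 and USP46 differed in sign, with log2 FC of -0.93 and 0.65, but the other probe set of USP45 had -0.13 (adjusted p = 0.884). BAD, which promotes cell death, rose by 0.59 ± 0.13 (adjusted p = 0.0383).

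Among the higher DEPS were several genes known from growing cell processes and secretion, a choice that leaves out how many such genes were tested. DPYSL3, which binds tubulin and actin in growth cones, stood at 6.54, 6.50 and 6.44 against 6.03, 5.60 and 5.79. NAV1, a microtubule-associated navigator protein, rose by 0.65 ± 0.14, SEPT8, a septin, by 1.16 ± 0.25 and RTN3, a reticulon of the endoplasmic reticulum, by 1.08 ± 0.20. The rise of each rests on 1 probe set, since the others had a log2 FC of 0.78 (adjusted p = 0.346) and 0.07 (adjusted p = 0.917) for NAV1, 0.86 (adjusted p = 0.0796) for SEPT8, and 0.17 (adjusted p = 0.841) and 0.07 (adjusted p = 0.930) for RTN3. PKDCC, a secreted kinase of matrix proteins, stood at 7.29, 6.47 and 6.76 against 6.15, 5.70 and 5.58, and EDIL3, an integrin ligand, rose by 0.66 ± 0.16.

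ANGPTL2, a secreted angiopoietin-like protein, and SERHL2 were the 2 higher DEPS whose arrays overlapped. ANGPTL2 stood at 5.28, 5.13 and 4.68 in RM and 3.42, 3.20 and 4.70 in CM, where pig 33 reached the lowest RM array. For SERHL2, RM of pig 7 lay at 6.35, level with the highest control, and pigs 8 and 9 stood at 7.83 and 8.15.

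The level at 1 week was set against RM at 4 and 6 weeks in the same fit. RM at 4 weeks differed from RM at 1 week in 1.59% of all probe sets and RM at 6 weeks in 0.181%. The RM arrays at 1 week enter both this comparison and that with CM, so values that lie at an extreme there favour a call in each. Single genes are therefore described, without a reading of how many there are. Control probe sets also differed between the stages. The 3′ minus 5′ level of EF1A had a mean of 1.215 at 4 weeks, against 2.05 to 2.15 in RM at 1 week. At 6 weeks its mean lay within that range. For the spike dap the mean was 1.55 at 4 weeks and 3.59 at 6 weeks, against 2.26 to 2.52 at 1 week. The hybridization spikes had a mean of 8.39 at 4 weeks, within the 1 week range of 8.25 to 8.51. The part of labelling in the stage differences was not tested.

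FBXO32 stood at 8.04, 6.80 and 8.08 at 4 weeks and 7.44, 6.93 and 6.10 at 6 weeks, and its level at 4 weeks was 1.66 ± 0.40 above that at 1 week (adjusted p = 0.0422). SESN1 was higher by 1.21 (adjusted p = 0.0212) and HBP1 by 0.97 (adjusted p = 0.0155) at 4 weeks than at 1 week. PLIN2 was higher by 2.05 (adjusted p = 0.0121), and FDFT1 by 1.51 (adjusted p = 0.0303). For these 5 probe sets the mean at 4 weeks lay within 0.18 of CM, and at 6 weeks the difference from 1 week did not pass. The other probe set of FBXO32 did not pass at 4 weeks against 1 week (1.09, adjusted p = 0.159), and its difference from CM at 4 weeks was -0.43. That of SESN1 did not pass either (0.67, adjusted p = 0.148), so the difference between stages rests on 1 probe set for each of these 2 genes.

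A2M, a protease inhibitor of plasma, stood at 4.88, 5.14 and 5.16 at 1 week, 7.19, 6.81 and 6.40 at 4 weeks and 6.07, 5.95 and 5.20 at 6 weeks, with 6.44, 6.99 and 6.64 in CM. It was higher at 4 weeks than at 1 week by 1.74 (adjusted p = 0.00999). GTPBP2, a GTPase that acts on stalled ribosomes, stood at 6.11, 5.58 and 5.43 at 1 week, 6.56, 6.81 and 6.45 at 4 weeks and 6.40, 6.17 and 5.75 at 6 weeks, with 6.82, 6.89 and 6.21 in CM. It was higher at 4 weeks than at 1 week by 0.90 (adjusted p = 0.0467).

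The reverse order, high at 1 week only among the RM stages, was found for URM1, a ubiquitin-like modifier of transfer RNA, and CCNJ, a cyclin. URM1 stood at 4.82, 4.54 and 4.72 at 1 week, 4.21, 4.05 and 4.05 at 4 weeks and 4.09, 4.07 and 4.20 at 6 weeks. It was lower than at 1 week by 0.59 (adjusted p = 0.0133) at 4 weeks and by 0.58 (adjusted p = 0.0422) at 6 weeks. CCNJ was lower by 1.11 (adjusted p = 0.00999) and by 0.99 (adjusted p = 0.0373). A second probe set of URM1 had a log2 FC of 0.10 at 1 week, and one of CCNJ 0.56 (adjusted p = 0.241), so the rise of each gene rests on 1 probe set.

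**Figure D4:**
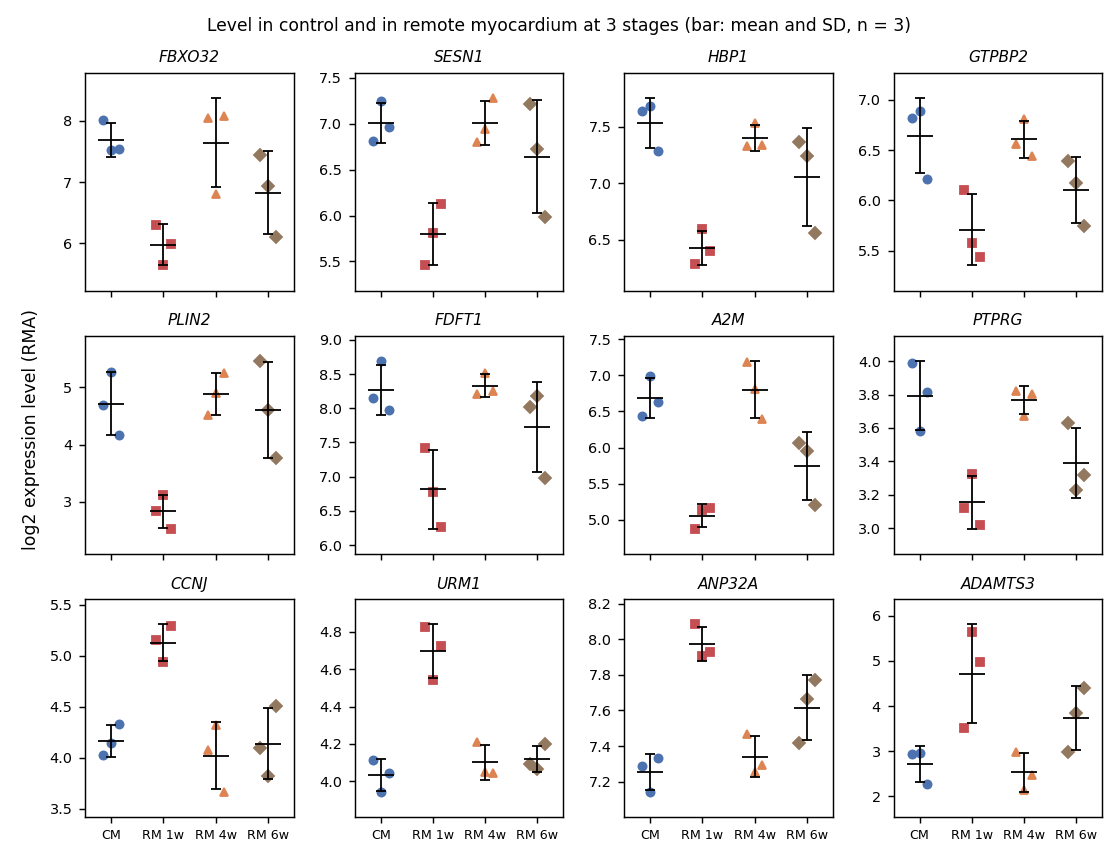
Log2 expression level (y axis, each panel with its own range) in CM (blue circles) and RM at 1 week (red squares), 4 weeks (orange triangles) and 6 weeks (brown diamonds), 3 arrays each, with black marks for mean and SD. The 12 probe sets were called at 1 week against CM and at 4 weeks against 1 week. In 8 panels the 1 week arrays lie below CM and below 4 weeks, and in 4 they lie above both.

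IC and RM of the same 3 pigs were compared with the pig as a block. They differed in 52.6% of all probe sets at 1 week. SRF stood at 5.50, 4.81 and 5.40 in IC of pigs 7, 8 and 9, below RM of the same pigs by 1.35 ± 0.22 (adjusted p = 0.000611). RRAD was lower in IC than in RM by 1.53 ± 0.15 (adjusted p = 2.63e-05). EDNRB (6.42, 6.76 and 6.86 in IC), ENPEP (5.26, 5.67 and 5.26) and PELI1 (7.35, 7.55 and 7.55) were higher in IC than in RM, by 1.47, 1.84 and 1.33.

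The means of these 5 genes in IC lay 0.18 to 0.45 from CM in size (adjusted p = 0.145 to 0.622), on the other side of CM from RM. ERG, in contrast, stood at 4.92 in IC, between RM (4.21) and CM (5.26), and S1PR1 at 7.48, beside RM (7.55). For ERG and S1PR1 IC was therefore on the same side of CM as RM. The comparisons of IC and of RM with CM share the 3 control arrays.

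**Figure D5:**
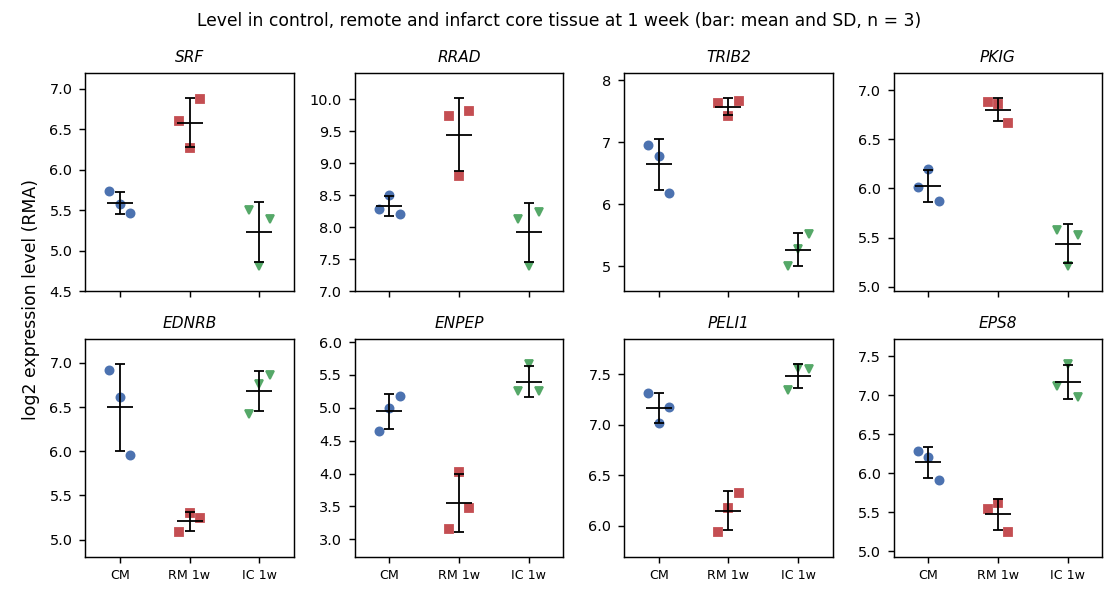
Log2 expression level (y axis, each panel with its own range) of 8 probe sets in CM (blue circles), RM at 1 week (red squares) and IC at 1 week (green triangles), 3 arrays each, pigs 7, 8 and 9 from left in RM and IC, with black marks for mean and SD. SRF, RRAD, TRIB2 and PKIG are high in RM, and EDNRB, ENPEP, PELI1 and EPS8 are low in RM, relative to both other groups.

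Genes with several probe sets allow a check of the calls. Of 125 called genes with a name, 29 had over 1 probe set tested, and in 5 of them over 1 probe set passed, among them S1PR1, DOCK9, CCDC15 and PKIG. In 4 the probe sets had opposite signs (NCOA7, PAQR3, EIF3M and CSNK2A1), and the direction of these genes is not clear. For EIF3M the called probe set (-0.87) has a match to the human gene CCDC73, and the other had a log2 FC of 0.01 (adjusted p = 0.984). Which of EIF3M and CCDC73 the called one reports is not clear. The 2 probe sets of CCDC15, a coiled-coil protein, rose by 1.35 and 1.22, and those of DOCK9, an activator of the GTPase CDC42, fell by 1.16 and 1.34. The RM mean of the second DOCK9 probe set lay below 3, which makes the size of its fall inexact.

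Control probe sets were compared to see whether labelling moved with the groups. The 3′ minus 5′ level of GAPDH was 0.51, 0.32 and 0.09 in RM and 0.21, 0.03 and 0.03 in CM (exact permutation test, two-sided, p = 0.2). The mean of the poly-A spikes differed by -0.28 (exact permutation p = 0.2), that of the hybridization spikes by -0.08 (exact permutation p = 0.5), and the array median by 0.01 (exact permutation p = 0.6). The 3′ minus 5′ level of the spike dap was 2.26 to 2.52 in RM and 2.03 to 2.19 in CM without an overlap, at the smallest p that 3 against 3 arrays allow (exact permutation p = 0.1). Of 86 control probe sets tested 0 were DEPS in limma, and 10 had an unadjusted p under 0.05, beside 1728 of all 12180 probe sets tested. The part of labelling in the results was not tested.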

How the data were processed

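RNA of 21 pig myocardial samples was labelled with the 3′ IVT Express kit and hybridized to Affymetrix Porcine Genome Arrays. The authors made the deposited log2 values by RMA (background correction, quantile normalization and summary of probes into probe sets), and these were used as deposited. Their version of RMA, and of limma, which the submitters' processing notes also name, is not given in the sources used here. Groups came from the labels. Those reaching more than 3 in 10 or more arrays were fitted with 7 group means in limma 3.58.1 (R 4.3.3, lmFit and eBayes, 14 residual degrees of freedom) and adjusted by Benjamini-Hochberg within each comparison, with DEPS at an adjusted p under 0.05. IC and RM of a pig share its number and were paired in a second fit with the pig as a block (6 residual degrees of freedom). Within a pig, the residuals of IC and RM had correlations from 0.0714 to 0.491 (9 pigs). The number of arrays limits the precision. The fits were tested on simulated data.

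Probe sets took the platform's symbol where it gives 1 (6239 of those tested), otherwise the study's match to a human gene (1078), 4777 had no name and 86 were controls. Symbols checked by gene identifier changed in 0 cases. Members of the comparison, the 30 gene lists and the genes named were chosen with earlier results of these data known. Genes named are the 15 with the smallest p in each direction among DEPS with a name, no overlap of arrays and a mean of at least 4, those the paper names for RM at 1 week, up to 4 of each list with the smallest p, leading cell type markers and control probe sets. Some of these are described only within counts. Others were chosen after their values were seen, as stated beside them. A list took 1 probe set per gene, that with the highest mean over 21 arrays. The lists were described by counts and medians with no set test. Alternatives changed the filter, the scaling, the arrays fitted, the variance model, the block, the threshold and the adjustment, and left out each array in turn. List counts with platform names only were added after seeing the data. One called gene is not reported here. Tables of the authors' own comparisons were used for gene names only.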

Additional observations from a re-analysis of the deposited data

Results flagged for a closer look

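Results of RM at 1 week are given here where RM at a later stage, or IC of the same pigs, differed from RM at 1 week by a test. Values are differences on the log2 scale, and no explanation was tested. RM at 4 weeks minus RM at 1 week was positive for HBP1 (0.97), A2M (1.74), PLIN2 (2.05), SESN1 (1.21), PTPRG (0.61), FDFT1 (1.51), FBXO32 (1.66) and GTPBP2 (0.90), all of them lower in RM at 1 week than in CM. It was negative for URM1 (-0.59), ANP32A (-0.63), VPS26B (-0.58), CCNJ (-1.11) and ADAMTS3 (-2.19), all of them higher at 1 week. RM at 6 weeks minus RM at 1 week was 1.37 for the probe set named BMPR1B or FRK, -1.55 for FAM46A, -0.58 for URM1 and -0.99 for CCNJ.

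IC minus RM at 1 week in the same pigs passed, with the mean of IC on the other side of CM from RM, for 18 probe sets. It was positive for PIK3C2A (1.07), PELI1 (1.33), ENPEP (1.84), FAM107B (1.70), ZSWIM6 (1.05), TMEM2 (2.37), B3GNTL1 (0.91), PQLC3 (2.42), TACC1 (1.71), EDNRB (1.47) and EPS8 (1.69). It was negative for PKIG (-1.36 and -1.05 in its 2 probe sets), TRIB2 (-2.31), SRF (-1.35), RRAD (-1.53), PAPD1 (-1.97) and SERHL2 (-1.83). The RM arrays at 1 week enter each of these differences and the choice of the genes. In limma, IC minus CM passed for some of the 18, such as TMEM2 (1.17, adjusted p = 0.000735) and PQLC3 (1.56, adjusted p = 3.05e-06). It did not pass for others, such as B3GNTL1 (0.06, adjusted p = 0.803), PIK3C2A (0.18, adjusted p = 0.332) and ZSWIM6 (0.24, adjusted p = 0.233). For such genes IC was not told apart from CM. The RM means of B3GNTL1 and PQLC3 lay below 3, so their sizes are inexact.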

How the results depend on the processing

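The count of DEPS depended on single arrays, and leaving out 1 array of either group gave 20 to 101 DEPS, 7 to 47 higher and 13 to 54 lower. A fit of the 6 arrays compared gave 18 (4 higher and 14 lower), of which 11 were among the 138. Array weights gave 557 (296 and 261), and adjustment over the 6 comparisons with CM together 785 (417 and 368). An adjusted p under 0.01 left 14 (6 and 8), and an absolute log2 FC of at least 1 left 74 (27 and 47). Without a filter 41 were higher, and centred on ribosomal protein genes 24 were higher. With the pig as a random replicate block there were 147 DEPS, and 134 of the 138 kept their call. The cause of these differences was not tested, beyond the fewer samples or stricter threshold that define some settings. Other filters, scalings, fits and variance settings left the 3 counts within 1.5 times, but a like count did not mean the same probe sets. A fit of only the RM and CM arrays gave 113 DEPS, of which 75 were among the 138. Without a filter 90 of 107 were among them, and with centring on ribosomal protein genes 88 of 97. No called value changed its sign in any setting run, but 34 of the list medians in these settings moved by more than the spread between replicates. Fitted without a replicate block, the difference of IC and RM lost the call in 17 of the 224 named probe sets and gained it in 2. Levels below 3 lie near the background of the arrays, and 6 higher and 6 lower DEPS had a group mean there.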

Other observations

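In the fit of the 6 arrays compared, 18 probe sets passed, among them both of PDK4 and others that the fit over all groups did not call. STC1 (stanniocalcin 1, a secreted glycoprotein) stood at 4.62, 4.65 and 4.56 in RM at 1 week and 7.76, 7.76 and 7.31 in CM (adjusted p = 0.00037 over 6 arrays and 0.0525 over 21 in limma). F3, which encodes tissue factor and starts blood clotting, stood at 6.44, 5.99 and 6.88 against 4.38, 4.25 and 3.41 (2.42, adjusted p = 0.0485 and 0.079). EPB41L3, a linker of membrane and actin, stood at 9.36, 9.45 and 9.25 against 8.29, 8.42 and 8.38 (0.99, adjusted p = 0.0485 and 0.0626). FNBP1, which bends membranes, had a log2 FC of -1.54 (adjusted p = 0.0485 and 0.118). The arrays of RM and CM did not overlap for any of these genes, which were chosen after their values were seen.

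Single arrays stood apart in single genes. KCNJ5, a potassium channel subunit, was at 3.61 in RM of pig 8 and at 8.03 to 8.52 in the other 5 arrays. CLOCK was at 1.62 in CM of pig 30 and at 4.93 to 5.69 in the other 5.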
